A study of Homo sapiens with 27 samples.

Results

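NF-kB feedback and leukocyte adhesion were followed in human EA.hy926 endothelial cells through 10 genes, out of 60604 gene entries in the count table. They were chosen by symbol: the adhesion molecules ICAM1, VCAM1 and SELE, the feedback inhibitors NFKBIA and TNFAIP3, the receptor-complex adaptors BIRC3 and TRAF1, and the NF-kB subunits RELB, NFKB1 and NFKB2. The choice was made with earlier results of these data known, so member counts set beside all genes are descriptions. EA.hy926 is a hybrid of umbilical vein endothelium and the A549 lung carcinoma line. The cells were kept for 48 h with products of ASC52telo, an adipose mesenchymal stromal cell (MSC) line immortalised with hTERT. MSCs were made senescent by 18 h of mitomycin C, which crosslinks DNA, at 1.5 µg/mL and a further 10 days of culture, and young MSCs were untreated. The exposed groups were co-culture with senescent or young MSCs at equal cell numbers, a 1:1 mix of culture medium with conditioned medium (CM) of senescent or young MSCs, and decellularised extracellular matrix (ECM) of senescent or young MSCs. The matrix was decellularised for 5 min with 0.5% Triton and 20 mM NH4OH. Control cells had no exposure. Both are established lines and not primary cells. Poly(A) RNA was counted in 27 libraries, 4 for each group except senescent co-culture, which had 3.

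NF-kB is a family of dimeric transcription factors held in the cytoplasm by inhibitor proteins, of which NFKBIA is the prototype. Cytokine receptors and Toll-like receptors release the dimers, which then switch on the genes of their own inhibitors, NFKBIA and the ubiquitin-editing enzyme TNFAIP3, so that a response tends to end itself. In endothelium the same factors switch on ICAM1, VCAM1 and E-selectin (SELE), the surface proteins to which leukocytes attach. A slower branch of the pathway makes active dimers of RELB with the processed form of NFKB2.

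The libraries of replicate 1 stood apart and are described separately, so that results below rest on the 21 libraries of replicates 2 to 4. Total counts ran from 66320519 to 111512357 per library. Levels are CPM, counts brought to a common library size by the TMM method over all libraries. The labels do not say whether replicates were separate cultures, so p-values measure only the spread among these libraries, and that spread may be technical. Nor do they say whether the co-cultured endothelial cells were parted from the MSCs, and the extraction protocol names MSCs as the RNA source whereas endothelial cells are the labelled cell type. Of 22 endothelial marker genes, 19 passed the filter on low counts, and CLDN5, EMCN and TAL1 did not. Their summed level, without TMM, was 6275 to 7833 CPM in co-culture, 3711 to 5710 CPM on ECM and 3114 to 4543 CPM in control libraries. It was 5018 to 5862 CPM in senescent CM and 3505 to 4276 CPM in young CM. COL1A1, the collagen chain that marks stromal cells, was at 118 to 169 CPM in senescent co-culture, 47.3 to 71.7 CPM in young co-culture, 5.42 to 9.44 CPM in CM, 4.28 to 10.3 CPM on ECM and 5.50 to 6.18 CPM in control. In bulk RNA, fewer cells of a type and less RNA per cell cannot be told apart.

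Promoter sequences are shown for 5 members because they let the 3 adhesion genes, which differed widely in level, be set beside both feedback inhibitors. RefSeq (GRCh38.p14) gave 300 bases, from 250 before to 50 after a start site, for 9 of the 10 members, and RELB was not in that table. Capitals mark matches, on either strand, to the 10-letter NF-kB (kB) consensus or to GGAAANNCC.
ICAM1 (chr19:10270870-10271169, plus strand): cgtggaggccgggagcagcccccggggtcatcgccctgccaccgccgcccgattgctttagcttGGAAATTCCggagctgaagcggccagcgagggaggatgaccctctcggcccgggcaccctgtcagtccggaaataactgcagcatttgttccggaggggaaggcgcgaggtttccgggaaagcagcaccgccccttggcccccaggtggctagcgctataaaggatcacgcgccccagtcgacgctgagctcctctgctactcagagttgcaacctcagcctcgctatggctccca
VCAM1 (chr1:100719492-100719791, plus strand): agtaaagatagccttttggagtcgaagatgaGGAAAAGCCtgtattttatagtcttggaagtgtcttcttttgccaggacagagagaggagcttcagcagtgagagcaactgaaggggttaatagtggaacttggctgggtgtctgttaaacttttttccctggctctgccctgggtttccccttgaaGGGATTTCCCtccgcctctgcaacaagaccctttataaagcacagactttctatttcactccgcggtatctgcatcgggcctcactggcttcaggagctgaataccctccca
SELE (chr1:169734030-169734329, minus strand): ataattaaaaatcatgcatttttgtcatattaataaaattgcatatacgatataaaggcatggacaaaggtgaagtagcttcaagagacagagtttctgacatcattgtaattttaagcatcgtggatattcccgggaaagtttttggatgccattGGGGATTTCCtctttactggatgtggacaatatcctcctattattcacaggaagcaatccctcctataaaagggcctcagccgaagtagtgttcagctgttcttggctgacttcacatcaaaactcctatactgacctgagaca
NFKBIA (chr14:35404700-35404999, minus strand): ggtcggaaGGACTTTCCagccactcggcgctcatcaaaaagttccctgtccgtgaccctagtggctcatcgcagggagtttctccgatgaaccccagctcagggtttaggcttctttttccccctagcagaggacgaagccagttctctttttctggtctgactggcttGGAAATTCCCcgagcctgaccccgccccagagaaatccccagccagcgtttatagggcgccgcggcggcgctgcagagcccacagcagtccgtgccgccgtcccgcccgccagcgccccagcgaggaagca
TNFAIP3 (chr6:137867009-137867308, plus strand): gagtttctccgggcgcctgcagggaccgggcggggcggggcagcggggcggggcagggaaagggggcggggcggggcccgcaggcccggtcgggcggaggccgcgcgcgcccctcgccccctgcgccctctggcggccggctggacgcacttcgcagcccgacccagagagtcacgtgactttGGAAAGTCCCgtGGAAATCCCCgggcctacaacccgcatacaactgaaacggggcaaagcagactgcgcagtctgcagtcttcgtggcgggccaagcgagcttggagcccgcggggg
The 2 patterns overlap each other at every kB consensus match of VCAM1, SELE, NFKBIA and TNFAIP3. ICAM1 matched only GGAAANNCC, with GGAAATTCC from -186 to -178 relative to the start site. VCAM1 held a kB consensus match, GGGATTTCCC, from -62 to -53, and SELE held GGGGATTTCC from -94 to -85. NFKBIA had its consensus match from -81 to -72, and TNFAIP3 had 2, from -67 to -58 and from -55 to -46. All of these read as the consensus on the strand opposite to the gene. Among the members not printed, BIRC3 and NFKB1 held a kB consensus match in their first promoter, NFKB2 in alternative promoters, and TRAF1 only GGAAANNCC in an alternative one. In all, 7 members held the consensus and 9 held GGAAANNCC in at least 1 promoter. Over all 27305 genes of the table, 7.09% held the consensus and 7.61% held GGAAANNCC. A match describes these letters and is not evidence of binding.

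Of the 10 members, 8 passed the filter on low counts and were tested with edgeR's quasi-likelihood F-test, with Benjamini-Hochberg adjustment over all genes and a threshold of 0.05. In the joint test of any difference among the 7 groups, 6 of the 8 passed, against 18.9% of all 18492 genes tested. These were ICAM1 (adjusted p = 3.52e-06, edgeR), TRAF1 (3.94e-07), TNFAIP3 (2.34e-05), BIRC3 (0.00026), RELB (0.00617) and NFKBIA (0.0414). NFKB2 (0.164) and NFKB1 (0.654) did not pass. By group mean, ICAM1 was highest in co-culture, while TRAF1, TNFAIP3, BIRC3 and RELB were highest on ECM.

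Per kilobase of exon, a scale on which genes can be compared, NFKBIA had the highest mean level over the 21 libraries, 25.3 CPM per kb. NFKB1 followed with 6.51, NFKB2 with 3.30, TNFAIP3 with 2.87, ICAM1 with 2.38 and RELB with 1.81 CPM per kb. TRAF1 and BIRC3 were low, at 0.331 and 0.155 CPM per kb. VCAM1 and SELE were at or near 0.

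**Figure D1:**
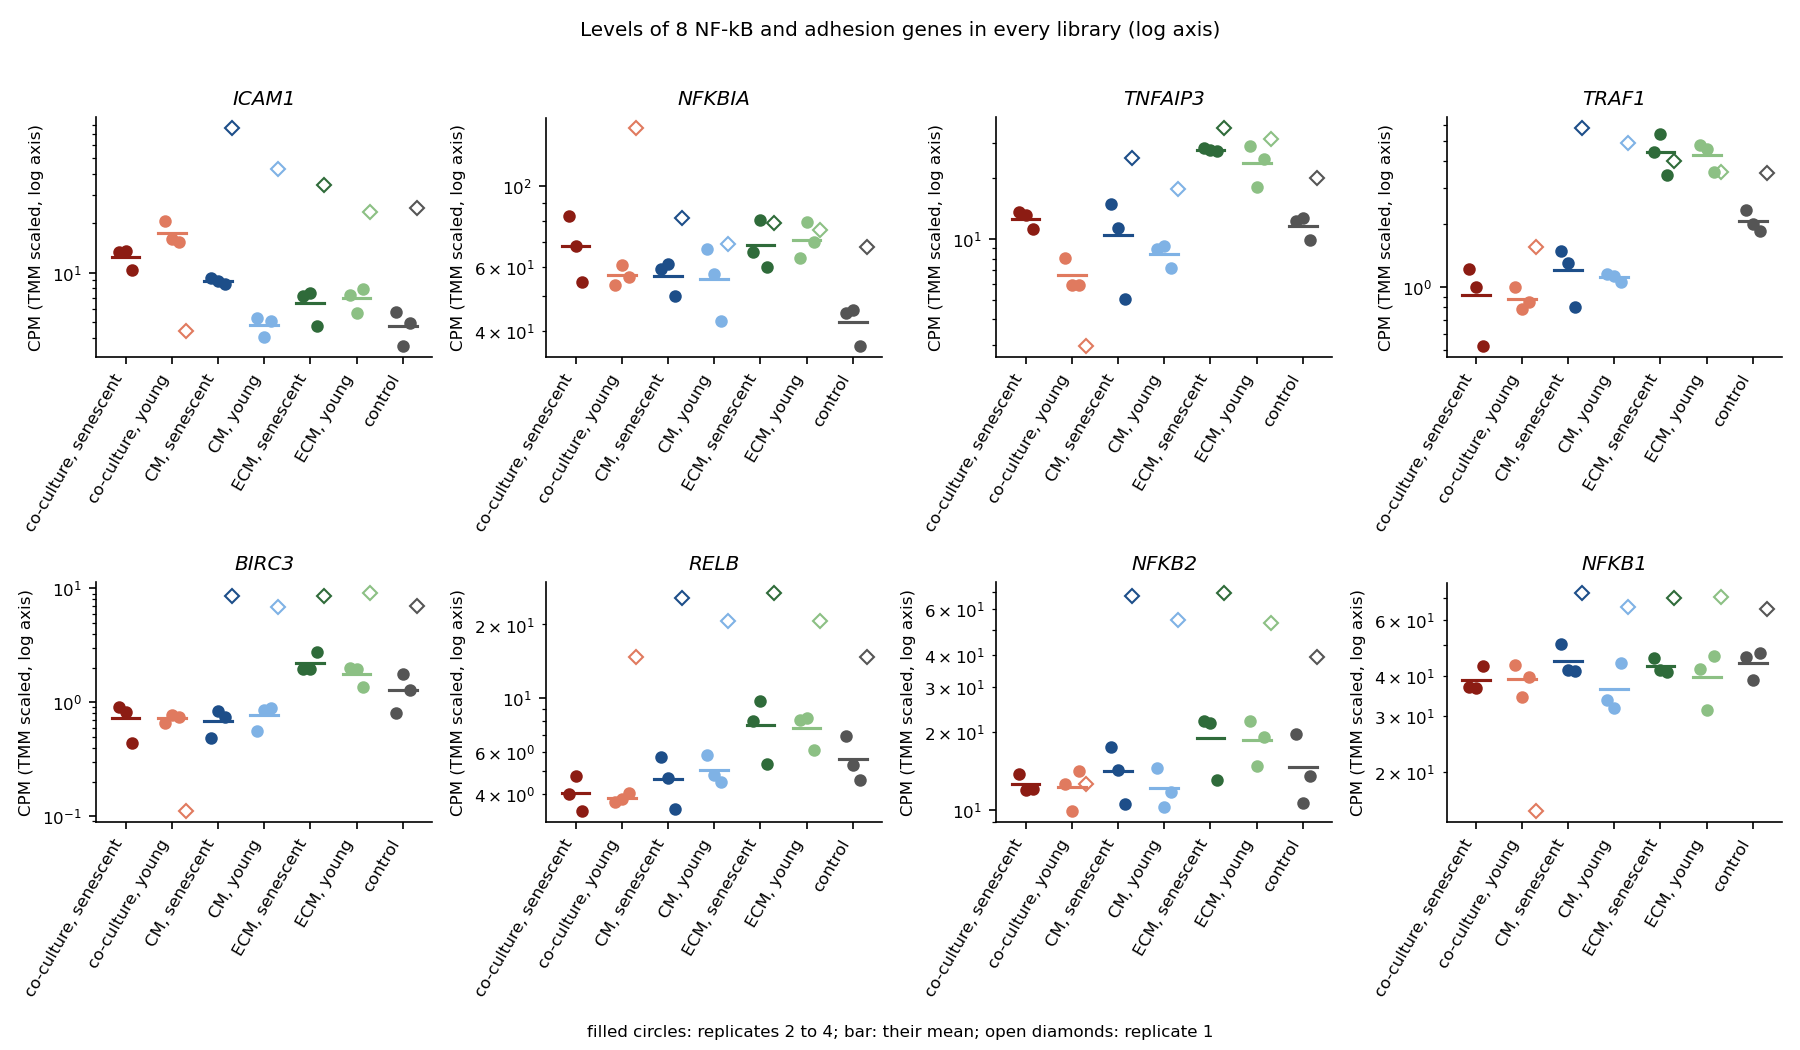
CPM (log axis) of the 8 members that passed the filter in each library, by group; filled circles are replicates 2 to 4, bars their mean, open diamonds replicate 1. Among replicates 2 to 4, ICAM1 is highest in both co-cultures, TNFAIP3 and TRAF1 on both ECMs, and NFKB1 lies between 31.3 and 50.2 CPM in all 21 libraries.

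ICAM1 (ENSG00000090339.9, chr19:10270835-10286615, plus strand, GENCODE 29 on GRCh38) encodes the intercellular adhesion molecule that leukocyte integrins bind. It was the only adhesion member that passed the filter on low counts. Its antisense neighbours LIMASI and ICAM4-AS1 had 202 and 173 counts over all libraries, against 34581 for ICAM1. Senescent co-culture libraries had 13.3, 13.6 and 10.3 CPM, and young co-culture libraries had 20.6, 16.2 and 15.4 CPM, against 5.77, 3.53 and 4.93 CPM in control libraries. All 6 co-culture libraries lay above all 3 controls, which held for 15.1% of all genes in senescent and 15.5% in young co-culture, and the 2 co-cultures did not overlap each other. Senescent CM libraries had 9.25, 8.82 and 8.49 CPM, and young CM libraries had 5.31, 4.06 and 5.06 CPM. Senescent ECM libraries had 7.23, 7.51 and 4.69 CPM, and young ECM libraries had 7.30, 5.68 and 7.89 CPM. In order of mean level, young co-culture (17.4 ± 2.8 CPM, SD, n = 3), senescent co-culture (12.4 ± 1.8) and senescent CM (8.85 ± 0.38) each stood clear of the next group. Young ECM (6.96), senescent ECM (6.48), young CM (4.81) and control (4.74) overlapped their neighbours. Of all genes, 6.46% had every senescent co-culture library below every young one. For senescent co-culture over senescent CM, and senescent CM over young ECM, that share was not computed.

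ICAM1 rose 3.68-fold in young co-culture over control (log2 fold change 1.88 ± 0.21 SE, adjusted p = 0.000235, edgeR) and 2.64-fold in senescent co-culture (1.40 ± 0.20, adjusted p = 0.0013). Both calls held when any 1 library was left out. They did not hold when replicate 1 was added, where the log2 fold changes were 0.46 for young and 0.29 for senescent co-culture. Scaling on the endothelial marker genes, which shifted the median gene by -0.84 and -0.96 on the log2 scale, left ICAM1 higher in both (1.07, adjusted p = 0.00105, and 0.49, adjusted p = 0.0264, edgeR). With both MSC states averaged, ICAM1 was higher in co-culture than in CM (log2 fold change 1.13 ± 0.15, adjusted p = 2.85e-05, edgeR) and than on ECM (1.10 ± 0.15, adjusted p = 8.73e-06). It was the only member called in co-culture over CM, against 17% of all genes, with 9.09% higher. With replicate 1 added, its value over CM turned to -0.54. Scaling on the endothelial genes, which shifted the median gene by -0.56 in co-culture over CM, brought 7 members past the threshold there, ICAM1 higher and 6 lower. All 6 co-culture libraries exceeded all 6 CM libraries, as for 5.36% of all genes, and all 6 ECM libraries, as for 9.89%.

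Stromal marker levels differed between the same groups. The 23 stromal marker genes summed to 3215 to 3402 CPM in senescent co-culture, 2902 to 3813 CPM in young co-culture, 2075 to 2389 CPM in senescent CM, 1231 to 1595 CPM in young CM, 911 to 1443 CPM on ECM and 1190 to 1732 CPM in control. In replicates 2 to 4, MMP2, NT5E and FN1, which control cells also expressed, made up 80.2% to 91.9% of that sum. Against control, 17 of the 23 stromal genes rose in senescent co-culture and 15 in young co-culture, with 1 lower in each. Of all genes, 5.82% rose and 2.23% fell in senescent co-culture, and 6.71% rose and 2.97% fell in young co-culture. COL1A1 was higher in senescent than in young co-culture, whereas ICAM1 was lower there. In replicate 1 of the control, COL1A1 was at 4035 CPM and ICAM1 at 25.0 CPM. In young co-culture, COL1A1 of 47.3 to 71.7 CPM went with ICAM1 of 15.4 to 20.6 CPM. In senescent CM, COL1A1 lay between 5.42 and 6.95 CPM, against 5.50 to 6.18 CPM in control. The part of stromal RNA in the level of ICAM1 was not tested.

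**Figure D2:**
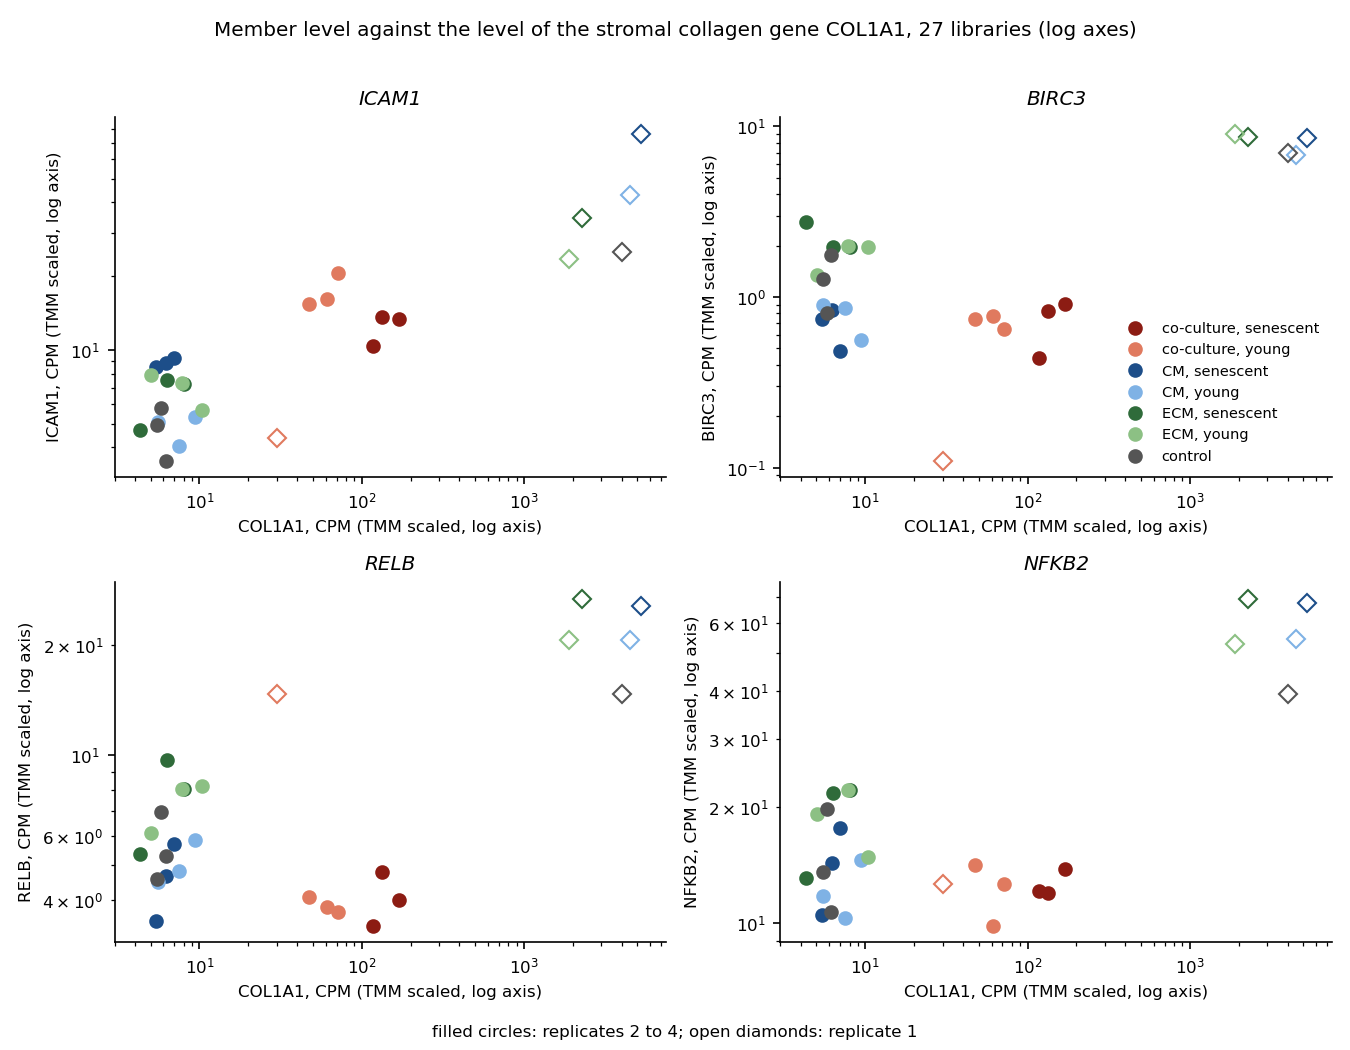
CPM (log axis) of ICAM1, BIRC3, RELB and NFKB2 against CPM of COL1A1 (log axis) in 27 libraries; filled circles are replicates 2 to 4 and open diamonds replicate 1. The 5 replicate 1 libraries of control, ECM and CM sit at COL1A1 of 1887 to 5262 CPM with ICAM1 of 23.4 to 76.2 CPM, and the co-culture libraries of replicates 2 to 4 at 47.3 to 169 CPM of COL1A1.

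Senescent over young MSCs gave ICAM1 log2 fold changes of opposite sign in CM and co-culture. In CM, all 3 senescent libraries lay above all 3 young ones, as for 6.68% of all genes (log2 fold change 0.87 ± 0.22), but the adjusted p was 0.378 with edgeR and 0.0523 with DESeq2. In co-culture, all 3 senescent libraries lay below all 3 young ones, as for 6.46% of all genes (-0.48 ± 0.20, adjusted p = 0.788, edgeR). The difference between those 2 effects was -1.36 ± 0.29 on the log2 scale, with an unadjusted p of 0.000155 and an adjusted p of 0.103 in edgeR, and 0.00491 in DESeq2. None of the 8 members passed in this comparison with edgeR, against 0.103% of all genes. None passed with either tool for the senescence effect in co-culture minus ECM, against 0.0487% of all genes, where no member had an unadjusted p under 0.05. None passed for CM minus ECM, against 0%, where 1 member had one, ICAM1, with a difference of 0.97 ± 0.30 and an unadjusted p of 0.00567 (edgeR, adjusted p = 1). Senescent CM over control gave ICAM1 a log2 fold change of 0.90 ± 0.21 (adjusted p = 0.0857, edgeR; 0.00706, DESeq2). With scaling on the endothelial genes ICAM1 was at 0.43 in senescent CM over control and 0.46 in senescent over young CM. Neither value passed with edgeR. That scaling shifted the median gene by -0.52 and -0.42 in these comparisons.

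VCAM1 (ENSG00000162692.12, chr1:100719742-100739045, plus strand) is bound by integrins of lymphocytes and monocytes, and SELE (ENSG00000007908.16, chr1:169722641-169764705, minus strand) slows leukocytes as they roll. VCAM1 had 23 counts in all over the 21 libraries, spread over 10 of them, with 0.068 CPM at most. Its counts per library were 4, 0 and 1 in senescent co-culture, 2, 1 and 1 in young co-culture, 0, 0 and 4 in senescent CM, 5, 3 and 0 in young CM, 1, 0 and 0 on senescent ECM, 0, 1 and 0 on young ECM, and 0 in each control. SELE had 2 counts in all, both in 1 young ECM library. A count of 0 allows up to 0.0269 to 0.0452 CPM per library, so differences below that were not detectable at this depth. The SELE locus overlaps C1orf112 on the opposite strand, which had 62622 counts over all 27 libraries, against 5 for SELE. The highest group means were 0.0354 CPM for VCAM1, in young CM, and 0.00816 CPM for SELE, on young ECM. Both genes have a kB consensus match in the promoter shown above.

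The feedback inhibitors were both measured well, and they differed. NFKBIA (ENSG00000100906.11, chr14:35401511-35404749, minus strand) had 82.5, 68.6 and 54.4 CPM in senescent co-culture, and 53.4, 60.7 and 56.2 CPM in young co-culture, against 44.9, 45.7 and 36.2 CPM in control. Senescent CM libraries had 59.1, 61.1 and 49.8 CPM, and young CM libraries had 67.0, 57.4 and 42.6 CPM. Senescent ECM libraries had 65.9, 80.6 and 59.7 CPM, and young ECM libraries had 63.6, 79.9 and 70.1 CPM. Control had the lowest mean, 42.3 ± 5.2 CPM (SD, n = 3), and every library of senescent and young co-culture, senescent CM and both ECM groups exceeded all 3 controls, while 1 young CM library lay within their range. Of all genes, 15.1% in senescent and 15.5% in young co-culture, 5.38% in senescent CM, 6.58% on senescent ECM and 5.65% on young ECM had every library above the controls. Among the single contrasts NFKBIA passed with edgeR in senescent co-culture alone (log2 fold change 0.71 ± 0.17, adjusted p = 0.0213, edgeR). That call ended without control replicate 4 (adjusted p = 0.134), without senescent co-culture replicate 2 (0.144) or without its replicate 3 (0.0993), all with edgeR. It turned to -0.26 with scaling on the endothelial genes. On ECM the log2 fold changes over control were 0.70 ± 0.18 for senescent and 0.75 ± 0.18 for young ECM, with adjusted p of 0.149 and 0.0831 (edgeR). Both passed in DESeq2 (0.0288 and 0.0101).

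TNFAIP3 (ENSG00000118503.15, chr6:137867188-137883312, plus strand) set ECM apart from every other group. Senescent ECM libraries had 28.2, 27.7 and 27.2 CPM, and young ECM libraries had 28.8, 18.0 and 25.0 CPM, against 12.3, 12.7 and 9.89 CPM in control. Senescent co-culture had 13.6, 13.1 and 11.2 CPM, and young co-culture had 8.07, 5.93 and 5.93 CPM. Senescent CM had 14.9, 11.3 and 5.06 CPM, and young CM had 8.97, 9.23 and 7.21 CPM. All 6 ECM libraries lay above the 6 CM libraries (as for 4.75% of all genes), the 6 co-culture libraries (7.23%) and the controls (6.58% on senescent and 5.65% on young ECM), and all 3 young co-culture libraries lay below all controls, as for 10.8% of all genes. Over CM, TNFAIP3 was 2.70-fold higher on ECM (log2 fold change 1.44 ± 0.20, adjusted p = 0.000207, edgeR), and it was lower in co-culture than on ECM (-1.52 ± 0.19, adjusted p = 3.86e-06). Against control alone the ECM values missed the threshold in edgeR (1.25 ± 0.28, adjusted p = 0.086, for senescent and 1.04 ± 0.28, adjusted p = 0.136, for young ECM), and passed it in DESeq2 (0.00337 and 0.0249). Its antisense neighbour WAKMAR2 had 996 counts over all libraries, against 39599 for TNFAIP3.

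TNFAIP3 was also the 1 member called between senescent and young co-culture, where 0.395% of all genes passed. It was 1.91-fold higher in senescent co-culture (log2 fold change 0.93 ± 0.17, adjusted p = 0.0423, edgeR), with no overlap of the libraries, as for 7.53% of all genes. Leaving out any 1 of the 6 libraries ended the call, with adjusted p between 0.0587 and 0.313 (edgeR). Of the 23 stromal marker genes, 7 were higher in senescent than in young co-culture and 0 lower. The part of stromal RNA in this call was not tested. In young co-culture TNFAIP3 fell below control (-0.80 ± 0.17, adjusted p = 0.0118, edgeR), a call that ended without young co-culture replicate 4 (adjusted p = 0.0634). In senescent co-culture it stood at 0.13 ± 0.17 over control (adjusted p = 0.722, edgeR), and with scaling on the endothelial genes at -0.84 (adjusted p = 0.00593). The difference between its senescence effects in co-culture and CM was 0.63 ± 0.37 and did not pass (adjusted p = 0.926, edgeR).

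TRAF1 (ENSG00000056558.11, chr9:120902393-120929173, minus strand) is an adaptor of TNF-family receptors that works together with BIRC3. Senescent ECM libraries had 4.44, 5.44 and 3.45 CPM, and young ECM libraries had 4.82, 4.57 and 3.55 CPM, against 2.35, 2.00 and 1.86 CPM in control. Senescent CM had 1.49, 1.31 and 0.805 CPM and young CM had 1.16, 1.13 and 1.06 CPM. Senescent co-culture had 1.22, 1.01 and 0.520 CPM and young co-culture had 1.00, 0.788 and 0.852 CPM. TRAF1 thus had 3 tiers with no overlap between them, ECM on top, control in the middle, and CM with co-culture at the bottom. Over all genes, 6.58% on senescent and 5.65% on young ECM lay above all controls, 5.17% in senescent and 3.38% in young CM lay below, and 10.4% in senescent and 10.8% in young co-culture. Over CM it was 3.73-fold higher on ECM (log2 fold change 1.90 ± 0.17, adjusted p = 3.29e-06, edgeR). In co-culture it was lower than on ECM by the widest margin of any member (-2.31 ± 0.19, adjusted p = 2.24e-08, edgeR).

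Against control, TRAF1 rose on young ECM (1.06 ± 0.23, adjusted p = 0.0489, edgeR) and was the only 1 of 8 members called there, against 0.649% of all genes. That call ended on leaving out any of the 6 libraries (adjusted p 0.0653 to 0.275, edgeR). On senescent ECM it had a log2 fold change of 1.10 ± 0.23 and an adjusted p of 0.0596 (edgeR; 0.00103, DESeq2). TRAF1 fell below control in senescent co-culture (-1.16 ± 0.28, adjusted p = 0.0231, edgeR) and young co-culture (-1.22 ± 0.27, adjusted p = 0.0164). The senescent call ended without senescent co-culture replicate 3 (adjusted p = 0.0634), and the young call without young co-culture replicate 3 (0.0576) or replicate 4 (0.0653), with edgeR. In CM the libraries of both MSC states lay below all controls, at -0.78 ± 0.23 for senescent CM (adjusted p = 0.237, edgeR) and -0.87 ± 0.24 for young CM (adjusted p = 0.681).

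BIRC3 (ENSG00000023445.16, chr11:102317450-102339403, plus strand), a ubiquitin ligase that keeps cells alive under TNF, was low in every group. Its lowest, median and highest levels were 1.35, 1.96 and 2.74 CPM on ECM, 0.436, 0.755 and 0.912 CPM in co-culture, and 0.484, 0.790 and 0.899 CPM in CM. Controls had 0.803, 1.76 and 1.28 CPM. All 6 ECM libraries exceeded all 12 CM and co-culture libraries, and the controls overlapped each set. Of all genes, 4.75% had every ECM library above every CM library and 7.23% had every co-culture library below every ECM library. BIRC3 was 2.68-fold higher on ECM than in CM (log2 fold change 1.42 ± 0.22, adjusted p = 0.000434, edgeR) and lower in co-culture than on ECM (-1.48 ± 0.21, adjusted p = 2.49e-05). Against control it passed in none of the 6 exposed groups with edgeR or DESeq2, where its log2 fold changes ran from -0.88 in senescent CM to 0.80 on senescent ECM, and 5 of the 6 had an unadjusted p under 0.05.

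RELB (ENSG00000104856.14, chr19:45001430-45038198, plus strand), the subunit of the slower branch, had lowest, median and highest levels of 5.35, 8.06 and 9.66 CPM on ECM, 3.40, 3.92 and 4.78 CPM in co-culture and 3.50, 4.73 and 5.83 CPM in CM. Controls had 6.97, 5.28 and 4.57 CPM. Every co-culture library lay below every ECM library, as for 7.23% of all genes, while ECM and CM overlapped. RELB was higher on ECM than in CM (log2 fold change 0.63 ± 0.17, adjusted p = 0.0222, edgeR) and lower in co-culture than on ECM (-0.96 ± 0.16, adjusted p = 0.000119). The first of these calls ended without young ECM replicate 2 (adjusted p = 0.057), senescent ECM replicate 2 (0.0526) or 3 (0.06), young CM replicate 3 (0.0582) or senescent CM replicate 4 (0.0671), with edgeR.

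The 2 other subunits gave 1 call between them. NFKB2 (ENSG00000077150.20, chr10:102394110-102402529, plus strand), the partner of RELB, had lowest, median and highest levels of 13.1, 20.5 and 22.2 CPM on ECM, 9.87, 12.4 and 14.2 CPM in co-culture and 10.3, 13.1 and 17.6 CPM in CM, with 19.8, 10.7 and 13.6 CPM in control. It was lower in co-culture than on ECM (-0.63 ± 0.18, adjusted p = 0.0112, edgeR) and passed in no other edgeR comparison. NFKB1 (ENSG00000109320.13, chr4:102501329-102617302, plus strand), precursor of the classical subunit, had group means between 36.4 and 44.4 CPM. All of its neighbouring groups overlapped, and its log2 fold changes over control ran from -0.25 to 0.02 with standard errors of at most 0.17.

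**Figure D3:**
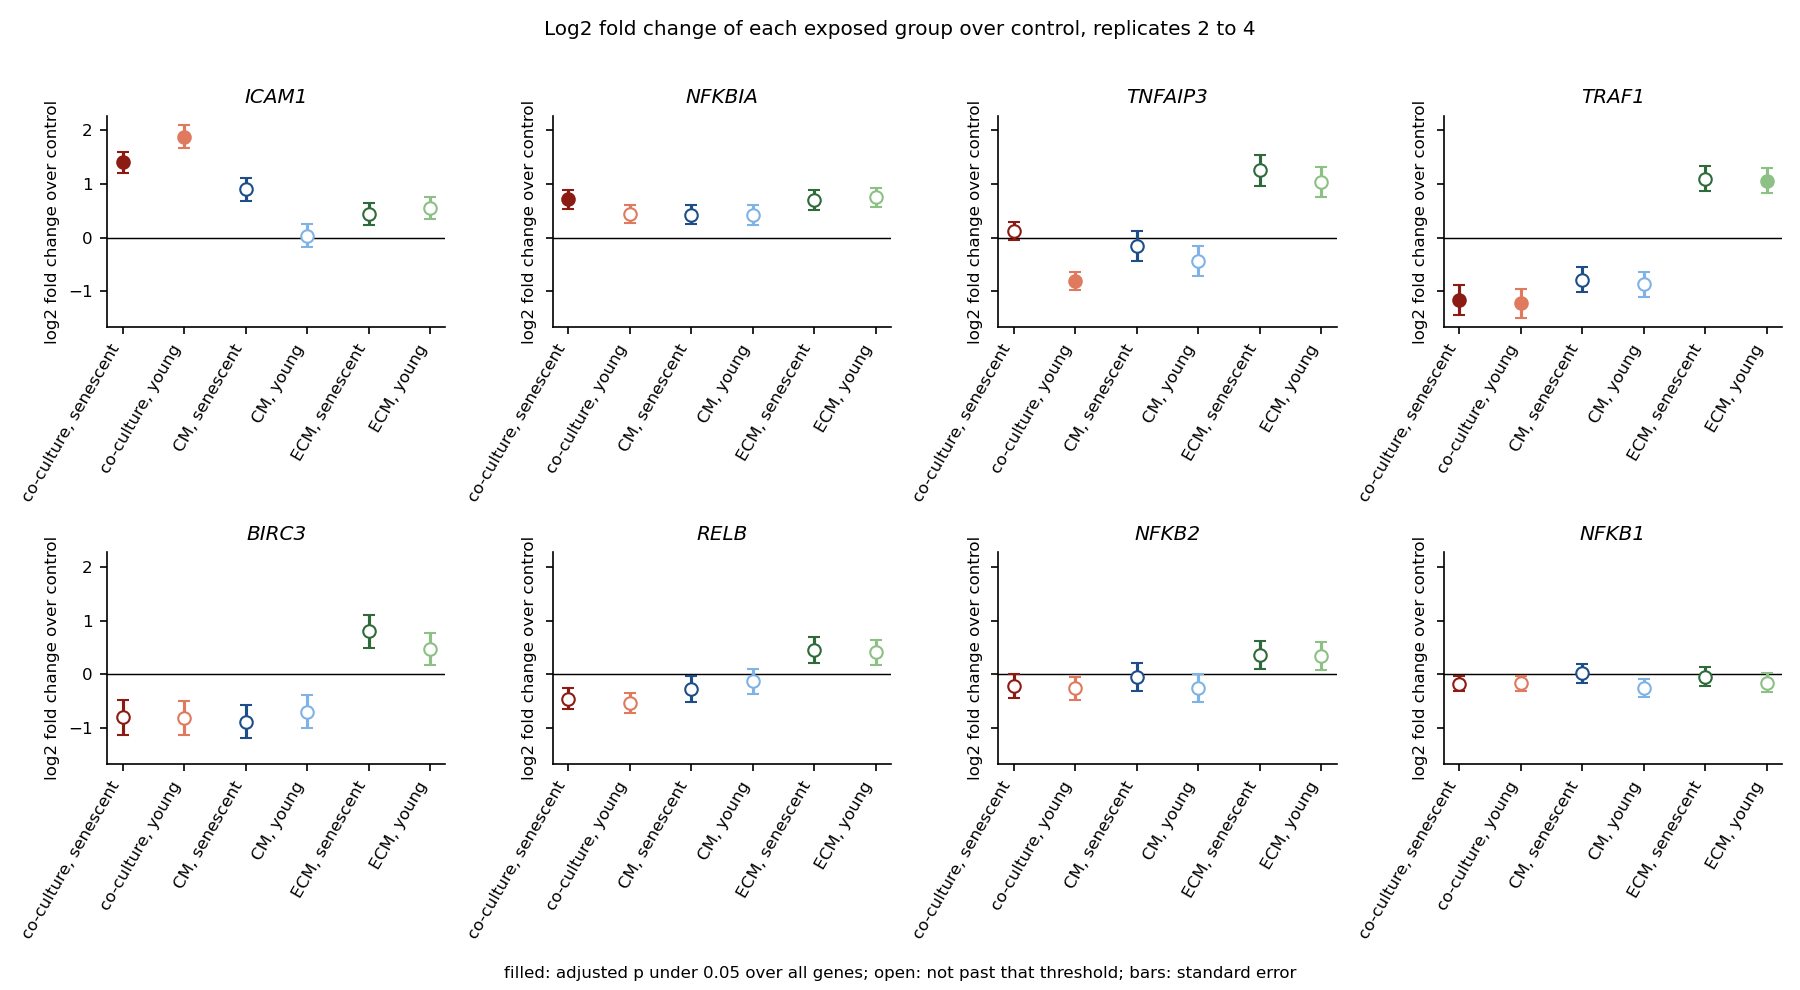
Log2 fold change over control (vertical axis, bars are standard errors) of 8 members in the 6 exposed groups; filled points passed the threshold in edgeR. ICAM1 passes in both co-cultures (1.40 and 1.88), TRAF1 falls there (-1.16 and -1.22), and on young ECM 1 member passes, TRAF1 at 1.06.

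Against control, 3 of the 8 members passed in senescent co-culture (ICAM1 and NFKBIA higher, TRAF1 lower), against 8.05% of all genes tested, 5.82% higher and 2.23% lower, and 3 passed in young co-culture (ICAM1 higher, TNFAIP3 and TRAF1 lower), against 9.68%, 6.71% higher and 2.97% lower. With scaling on the endothelial genes, which shifted the median gene by -0.96 and -0.84, 7 passed in each, 1 higher and 6 lower. No member passed on senescent ECM, where 0.3% of all genes did and 4 members had an unadjusted p under 0.05, and DESeq2 called 3. In senescent CM none passed, against 0.505% of all genes, DESeq2 called 1 member, and 4 had an unadjusted p under 0.05. In young CM none passed, against 0% of all genes, and 846 genes, 3 of them members, had an unadjusted p under 0.05. DESeq2 called 33 genes in young CM and 0 members. The median log2 fold change of the tested members was -0.19 in senescent co-culture, -0.39 in young co-culture, -0.10 in senescent CM, -0.25 in young CM, 0.57 on senescent ECM and 0.51 on young ECM. Over all genes it was between -0.01 and 0.02 in each.

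Senescent over young MSCs gave no member past the threshold on ECM, where 0% of all genes passed and DESeq2 called 0 members. An unadjusted p under 0.05 was found for 141 genes there, none of them a member. In CM none passed, against 0.0167% of all genes, with ICAM1 alone at an unadjusted p under 0.05 and 0 called by DESeq2. On ECM the log2 fold changes of the 8 members ran from -0.11 ± 0.21 (ICAM1) to 0.33 ± 0.29 (BIRC3).

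The ways of exposure were compared with both MSC states averaged, 6 libraries against 6. On ECM, 4 of 8 members were higher than in CM (TRAF1, TNFAIP3, BIRC3 and RELB) and none was lower, against 11.8% of all genes, with 6.79% higher. In co-culture over ECM, 6 of 8 passed, ICAM1 higher and TNFAIP3, TRAF1, BIRC3, RELB and NFKB2 lower, against 26.9% of all genes, with 13.8% higher and 13.1% lower. These directions were the same with scaling on the endothelial genes, under which 3 members passed in ECM over CM, RELB being lost (adjusted p = 0.052, edgeR), and 8 in co-culture over ECM, 1 higher and 7 lower. That scaling shifted the median gene by -0.51 in co-culture over ECM and by -0.05 in ECM over CM. With replicate 1 added, TNFAIP3 alone stayed past the threshold in ECM over CM, and TNFAIP3, TRAF1 and BIRC3 in co-culture over ECM. Keratin-dominated epithelial markers moved across the same groups: the sum of 13 epithelial genes was 1069 to 1278 CPM on ECM, 3380 to 4754 CPM in co-culture, 3504 to 5511 CPM in CM and 2104 to 2543 CPM in control. Of them, CDH1, CLDN3, ESRP1, NKX2-1 and SFTPC were at or near 0. The 8 tested had a median log2 fold change of 0.06 in ECM over CM, with 0 higher and 3 lower. In co-culture over ECM their median was 0.33, with 3 higher and 1 lower. The part of the epithelial genes in the members' values was not tested.

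**Figure D4:**
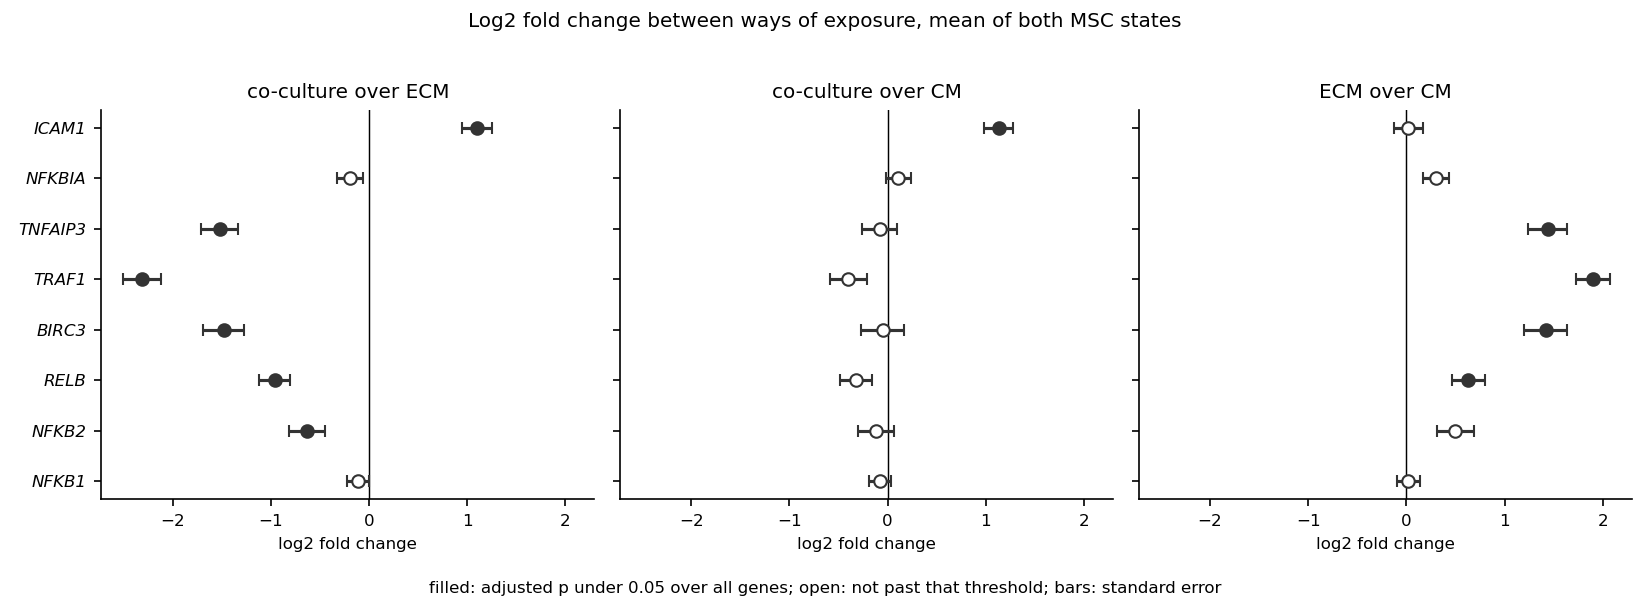
Log2 fold change (horizontal axis, bars are standard errors) of 8 members between ways of exposure, averaged over both MSC states; filled points passed the threshold in edgeR. TNFAIP3, TRAF1, BIRC3 and RELB lie left of 0 in co-culture over ECM and right of 0 in ECM over CM, and ICAM1 alone is called in co-culture over CM, at 1.13.

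Other NF-kB genes were read from lists. Of 22 further NF-kB target genes, 20 were tested in co-culture. In senescent co-culture 13 rose and 1 fell, with a median log2 fold change of 1.09, and in young co-culture 11 rose and 1 fell, with a median of 0.69. Of all genes, 5.82% rose and 2.23% fell in senescent co-culture, and 6.71% rose and 2.97% fell in young co-culture. Scaling on the endothelial genes shifted the median gene by -0.96 in senescent and -0.84 in young co-culture. It turned the counts of these targets to 4 higher and 8 lower with a median of 0.11 in senescent co-culture, and to 3 higher and 6 lower with a median of -0.16 in young co-culture. In senescent co-culture the chemokine genes CXCL1 (8.27 ± 3.25 CPM, against 1.68 ± 0.26 CPM in control, log2 fold change 2.32, adjusted p = 0.00151, edgeR) and CXCL8 (41.2 ± 14.3 CPM, against 8.98 ± 4.10 CPM, 2.21, adjusted p = 0.00674) rose. ZC3H12A, a ribonuclease that dampens inflammatory transcripts, rose in senescent co-culture (6.13 ± 0.12 CPM, against 2.60 ± 0.86 CPM in control, 1.24, adjusted p = 0.00607, edgeR) and in young co-culture (6.16 ± 1.03 CPM, 1.25, adjusted p = 0.00599). PTGS2, an inducible prostaglandin synthase, rose in young co-culture (1.30, adjusted p = 0.00146, edgeR), on senescent ECM (1.31, adjusted p = 0.00625) and on young ECM (1.60, adjusted p = 0.000864). BCL2A1, an anti-apoptotic target, was the 1 that fell in each, with log2 fold changes of -1.14 in senescent (adjusted p = 0.0142, edgeR) and -1.85 in young co-culture (adjusted p = 0.000889). The senescent value was chosen after it was seen. Between senescent and young co-culture, neither CXCL1 nor CXCL8 passed with edgeR. Against control, 17 of the 23 stromal marker genes rose in senescent co-culture and 15 in young co-culture, with 1 lower in each. The part of stromal RNA in the co-culture values of these targets, and of the other listed genes below, was not tested.

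On ECM, 2 of 21 further targets rose on each matrix, PTGS2 and CXCL1, and none fell. Over all genes, 0.3% passed on senescent and 0.649% on young ECM. The medians of the 21 were 0.40 on senescent and 0.38 on young ECM. With scaling on the endothelial genes 0 passed on either matrix, and DESeq2 called 4 on each. CXCL1 rose by 1.64 on senescent ECM (adjusted p = 0.0431, edgeR) and by 1.51 on young ECM (adjusted p = 0.0417), the second chosen after its values were seen. In CM none of the 21 passed with either MSC state, with medians of 0.18 for senescent and 0.21 for young CM. Of the 28 pathway components, none passed on ECM or in CM of either state. In senescent co-culture 1 of 28 passed as higher, against 5.82% of all genes, the receptor adaptor MYD88 (79.9 ± 2.6 CPM, against 55.5 ± 8.6 CPM in control, log2 fold change 0.53, adjusted p = 0.0393, edgeR), and with RLE size factors 0 did. In young co-culture 3 of 28 passed as higher, against 6.71% of all genes, and 1 as lower, against 2.97%. Those higher were BCL3, a nuclear partner of NF-kB dimers (1.00, adjusted p = 0.014, edgeR), TRAF5 (0.70, adjusted p = 0.0131) and MYD88 (0.55, adjusted p = 0.0324). The lower one was IRAK1, a kinase downstream of interleukin and Toll-like receptors (-0.51, adjusted p = 0.0495, edgeR), which is named after its values were seen. The median of the list was 0.03 in senescent and -0.01 in young co-culture. With scaling on the endothelial genes, which shifted the median gene by -0.96 and -0.84, none was higher and 22 and 20 were lower.

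Of the 17 receptors and ligands, 13 were tested in co-culture. The cytokine gene IL1B was at 12.7 ± 3.0 CPM in senescent co-culture, against 2.37 ± 0.43 CPM in young co-culture (log2 fold change 2.43, adjusted p = 0.00056, edgeR) and 1.25 ± 0.18 CPM in control (3.36, adjusted p = 8.12e-06). CD40, a TNF-family receptor, rose in senescent co-culture (0.80, adjusted p = 0.00359, edgeR) and young co-culture (1.02, adjusted p = 0.000812), and TNFRSF11A fell in senescent co-culture (-0.77, adjusted p = 0.0253). IL1R1, the interleukin receptor, and TNFRSF1B, named after their values were seen, also rose in both, so that 4 rose and 1 fell in senescent co-culture and 4 rose in young co-culture. The shares over all genes were 5.82% higher and 2.23% lower in senescent co-culture, and 6.71% higher and 2.97% lower in young co-culture. With scaling on the endothelial genes, which shifted the median gene by -0.96 and -0.84, the counts of receptors and ligands changed. They were 2 higher and 8 lower in senescent co-culture and 0 higher and 6 lower in young co-culture. IL1B was the 1 of 12 called on young ECM (1.61, adjusted p = 0.0253, edgeR), against 0.649% of all genes. It was named after its values were seen, and none of the 12 passed on senescent ECM or in CM. LIF, also named afterwards, was the 1 further target called between senescent and young co-culture (1.50, adjusted p = 0.00819, edgeR), and no pathway or adhesion gene passed there. In that comparison 7 of 23 stromal marker genes were higher and 0 lower, against 0.395% of all genes called. The part of stromal RNA in the values of IL1B and LIF was not tested.

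Among 19 tested adhesion and transmigration genes other than the members, 5 rose in senescent co-culture and none fell, and 5 rose and 1 fell in young co-culture. Of all genes, 5.82% rose and 2.23% fell in senescent co-culture, and 6.71% rose and 2.97% fell in young co-culture. P-selectin (SELP) rose to 10.1 ± 2.0 CPM in senescent co-culture and 14.3 ± 3.6 CPM in young co-culture, against 2.93 ± 0.0950 CPM in control (log2 fold changes 1.80, adjusted p = 0.000247, and 2.29, adjusted p = 0.000103, edgeR). PECAM1, a junctional molecule that leukocytes pass, was at 1244 ± 93 CPM in senescent co-culture and 1243 ± 37 CPM in young co-culture, against 499.8 ± 116.6 CPM in control (1.32 in each, adjusted p = 0.000394 and 0.00047, edgeR). MCAM (0.73, adjusted p = 0.0469, edgeR), ITGA4 (0.62) and F11R (0.84, adjusted p = 0.0341) completed the 5 in senescent co-culture, and MCAM (1.25), ITGA4 (0.61) and F11R (0.98) those in young co-culture, where CD47 fell (-0.45, adjusted p = 0.0385, edgeR). MCAM and ITGA4 in senescent co-culture, and F11R, ITGA4 and CD47 in young co-culture, were named after their values were seen. In senescent co-culture 13 of 19 endothelial marker genes rose as well, and in young co-culture 14, with none lower. Scaling on those genes left 1 adhesion gene higher and 14 lower in senescent co-culture and 2 higher and 13 lower in young co-culture. That scaling shifted the median gene by -0.96 in senescent and -0.84 in young co-culture. PECAM1 belongs to both lists, so the counts are not independent of the scaling genes. On ECM and in CM none of the 19 passed with edgeR.

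Across the 21 libraries, which share their normalisation and groups, TRAF1 varied most closely with RELB (Pearson r of log2 CPM 0.91), TNFAIP3 (0.86) and BIRC3 (0.85). ICAM1 ran the other way from these members, at -0.46 with BIRC3, -0.43 with TRAF1 and RELB, and -0.28 with TNFAIP3. With NFKBIA it was at 0.29, with NFKB1 at 0.05 and with NFKB2 at -0.06. These values are descriptions over 21 libraries. Among 10126 or more genes with at least 5 CPM, those most like ICAM1 were NDRG4 (r = 0.981) and SH2D3C (0.98), and those most like TRAF1 were MAPKAPK3 (0.966) and STPG1 (0.965). TNFAIP3 was most like PPP2CB (0.955) and CAPN2 (0.944), RELB most like BCL2L1 (0.953) and ARHGAP22 (0.947), and BIRC3 most like ARMCX1 (0.928) and KITLG (0.903). NFKB2 was closest to MVP (0.95) and ACTN4 (0.948), NFKB1 to URB2 (0.947) and CLTC (0.937), and NFKBIA, with the weakest match, to SNHG11 and SPSB2 (both 0.865).

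Replicate 1 gave other levels. In its 5 libraries of senescent CM, young CM, senescent ECM, young ECM and control, ICAM1 was at 76.2, 43.0, 34.5, 23.4 and 25.0 CPM, and BIRC3 at 8.59, 6.82, 8.60, 9.04 and 7.01 CPM. Both genes were above every library of replicates 2 to 4 there. COL1A1 in the same libraries was at 1887 to 5262 CPM. Within replicate 1, ICAM1 was again higher with senescent than with young CM, and TNFAIP3 was again higher on senescent and young ECM (35.3 and 31.2 CPM) than in control (20.0 CPM). TRAF1 did not keep its ECM tier, with 4.01 and 3.56 CPM on senescent and young ECM, against 5.76 and 4.89 CPM in senescent and young CM and 3.54 CPM in control. The 1 co-culture library, with young MSCs, had 4.37 CPM of ICAM1 and 0.110 CPM of BIRC3, below replicates 2 to 4, and 144 CPM of NFKBIA, above them, at a TMM factor of 0.459. Without TMM it had 66.2 CPM of NFKBIA, against 57.3 to 64.3 CPM in the 3 others of its group.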

How the data were processed

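Poly(A) RNA from 7 groups of cultures went into 27 libraries with a kit that marks strand, as the labels' protocols state. Per the submitters' processing notes, HISAT2 2.2.1 was the aligner, GRCh38 (hg38) the build and featureCounts 2.0.1 the counter. Neither the annotation release nor the strand setting of that counting is given in the sources used here, so counts of genes that overlap on opposite strands are uncertain. The deposited values are whole-number counts per gene, not normalised by the authors. Of 60648 entries, 44 Y copies of pseudoautosomal genes (109832 counts) were left out. Symbols matched 60462 entries, and GENCODE 29 gave positions for 58336. No 2 replicates were alike within sampling noise (lowest chi-square per degree of freedom 21.9).

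Genes were tested with edgeR 4.0.16 (R 4.3.3, quasi-likelihood F-test, 2-sided, Benjamini-Hochberg over all genes, threshold 0.05) with TMM scaling and filterByExpr at a minimum count of 10. Replicates 2 to 4 of control, ECM and CM were fitted together (15 libraries, 18015 genes), as were control and co-culture (9 libraries, 17729 genes), and all 21 libraries for differences between co-culture and the other ways (18492 genes). There were 16 comparisons. The scripts were tested on simulated data. A count of 0 was given a floor of 3 counts, which covers counting error only. Alternatives were RLE size factors, scaling on 22 endothelial genes, DESeq2 1.42.0, no filter, all replicates, a replicate block, a joint fit and leaving out each library. All 10 members and the gene lists were chosen with earlier results of these data known. From each other list, up to 3 genes past the threshold with at least 5 CPM and the largest change were named per comparison, besides those marked in the text as named after their values were seen. SOD2, listed among the targets, matched no entry by symbol and was not analysed here.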

Additional observations from a re-analysis of the deposited data

Results flagged for a closer look

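In 48 sets of 4 libraries (1 member in 1 group, replicates 1 to 4), 22 had a library far from the other 3 by Dixon's test, which chance alone would flag in about 1 in 20. Each of the 22 was replicate 1. ICAM1 stood far above the rest in replicate 1 of senescent CM (76.2 CPM), young CM (43 CPM), senescent ECM (34.5 CPM), young ECM (23.4 CPM) and control (25 CPM). BIRC3 did so in the same 5 libraries, at 8.59, 6.82, 8.6, 9.04 and 7.01 CPM in that order. RELB was far above in replicate 1 of young co-culture (14.7 CPM), senescent CM (25.7 CPM), young CM (20.7 CPM) and young ECM (20.7 CPM). NFKB2 was so in senescent CM (67.5 CPM), young CM (54.4 CPM) and senescent ECM (69.2 CPM), and TRAF1 in senescent CM (5.76 CPM) and young CM (4.89 CPM). Single sets were NFKB1 in senescent ECM (70.3 CPM), TNFAIP3 in senescent ECM (35.3 CPM) and NFKBIA in young co-culture (144 CPM). Without TMM scaling, whose factor was 0.459 for that library, NFKBIA was at 66.2 CPM there and at 57.3 to 64.3 CPM in the other 3, and RELB at 6.76 CPM there and 3.98 to 4.34 CPM in the other 3. COL1A1 was at 1887 to 5262 CPM in replicate 1 of control, ECM and CM, and its part in the members' values was not tested.

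The senescence effect on ICAM1 differed between co-culture and CM by -1.36 on the log2 scale. All senescent libraries lay below the young ones in co-culture and above them in CM. Tested as an interaction in edgeR, the difference had an adjusted p of 0.103.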

How the results depend on the processing

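Of the 19 member calls in single contrasts, all kept their direction and stayed past the threshold with DESeq2, without the filter on low counts and under the replicate block. With RLE size factors 1 was lost, in the joint fit 2 of 12 and with scaling on the endothelial genes 3, besides NFKBIA in senescent co-culture, which reversed to -0.26. Adding replicate 1 lost 14 calls and reversed ICAM1 in co-culture over CM to -0.54. Counts of members called moved as follows, and the cause was not tested. On young ECM over control, 1 became 0 with RLE, endothelial scaling or all replicates, 2 in the joint fit, and 3 with DESeq2, no filter or the block. On senescent ECM, 0 became 2 without the filter, in the joint fit or with all replicates and a block (an alternative chosen after seeing the data), and 3 with DESeq2 or the replicate block. In senescent CM, 0 became 1 with endothelial scaling, DESeq2, no filter, the joint fit or all replicates with the block, and 2 with the block. These counts did not stand for the same member throughout. With endothelial scaling the call was a receptor-complex adaptor, lower than control, and with DESeq2 it was ICAM1, higher. In senescent and young co-culture over control, 3 became 7 with endothelial scaling and 0 with all replicates, blocked or not. Between senescent and young CM, 0 became 1 without the filter, and between senescent and young co-culture 1 became 0 with endothelial scaling, the joint fit, and all replicates, blocked or not. In ECM over CM, 4 became 1 with all replicates. In co-culture over CM, 1 became 7 with endothelial scaling, 2 with the block and 0 with all replicates, blocked or not, and in co-culture over ECM 6 became 3 with all replicates. For the senescence effect in co-culture minus CM, 0 became 1 with DESeq2, no filter or the block. For any difference, 6 became 1 with all replicates and 3 with a block added. Leaving out 1 library gave 0 to 0 calls on young ECM and between the co-cultures, and 1 to 4 in each co-culture over control, with 1 on dropping senescent co-culture replicate 3 or young co-culture replicate 4.

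The labels do not tie same-numbered libraries to each other. After group means were removed, 41 of 63 same-number pairs correlated above 0.1 (median 0.16, against -0.096 for other numbers), and 19 of 21 libraries were closest to their own number, a hint from the data of pairing that the design does not state. Over all genes, DESeq2 called 235 on senescent ECM, 346 on young ECM and 274 in senescent CM, where edgeR called 54, 117 and 91. Depth limits VCAM1 and SELE, which are at or under the limit that a count of 0 allows in most libraries. For SELE that limit is itself uncertain, because C1orf112 overlaps it on the opposite strand and the strand setting of the counting is not given.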
